A study of Mus musculus with 6 samples.

Results

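Rac1, Arhgap5, Rnd1 and Chm are genes of the small GTPase system, and their transcripts were followed in adult mouse neocortex with and without the RNA-binding protein KHSRP. Only 1 probe of each gene could be given its symbol, and any other probe of these genes on the array could not be recognised. Thus 4 of the 60915 probe names on the array, and 4 of the 1788 probes that could be given a gene symbol, are described. The symbols came from the study's own list of transcripts that differed between the genotypes, and were used only as annotation. The 4 genes were thus chosen by the difference in array signal between the genotypes in these same 6 samples, and their levels are given as a description. No p-value is given for them as support, and their calls in the fit across all probes are counted only beside the share of all probes called. The probes of Rac1 (NM_009007), Arhgap5 (NM_009706) and Chm (NM_018818) carried an accession, and all 3 accessions belong to the same symbol in RefSeq. The probe of Rnd1 carried none and was found through its 6 raw values.

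The samples were neocortex of adult male mice, 3 labelled KHSRP-KO and 3 labelled WT, with 1 single-colour array for each mouse. Per the study's methods, the knockout is a constitutive deletion within Khsrp on a C57Bl/6 background, so that every cell of the body lacks the protein throughout life. The WT mice were littermates. The labels name no treatment besides the genotype, and all RNA was depleted of ribosomal RNA before labelling.

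KHSRP binds AU-rich elements of mRNAs and promotes their decay. Small GTPases are switches that signal while they hold GTP and stop when they hydrolyse it. Exchange factors turn them on, GTPase activating proteins turn them off, and a lipid added to the C-terminus anchors them in membranes. In neurons, some of these GTPases, Rac1 among them, shape the actin cytoskeleton of growth cones, dendrites and spines, and the Rab family directs vesicle traffic.

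Arrays with an identical scan record were taken as arrays of 1 slide. KHSRP-KO array 1 shared a slide with WT array 3, KHSRP-KO arrays 2 and 3 shared another, and WT arrays 1 and 2 shared the last, so that only 1 of 3 slides held both genotypes. Between 71.3% and 82.6% of spots were well above background. The 75th percentile of the unscaled log2 signal ran from 8.42 to 8.96, and it was lowest on KHSRP-KO arrays 2 and 3. Each value called scaled is the log2 of the background-subtracted signal minus this percentile of its own array. No probe was named Khsrp, and the genotype of each array was taken from its label alone, the Khsrp transcript being not analysed here. Of 44 cell type markers only 5 had a named probe, which is too few to check the tissue, and the marker of a neighbouring region among them, Drd1 of the striatum, was higher in KHSRP-KO than in WT neocortex by 1.19 (SE 0.37), with the KHSRP-KO arrays at 3.28, 4.75 and 3.56 and the WT arrays at 2.68, 2.52 and 2.82. On the slide of both genotypes Drd1 differed by 0.46, against 1.55 over the other slides. A marker could be named only if the study had listed it as changed. The part of Drd1-expressing tissue in the results below was not tested.

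Rac1 encodes a small GTPase that drives actin polymerisation at the leading edge of cells and the growth of dendritic spines. Its scaled log2 signal was 7.47, 8.03 and 8.07 on KHSRP-KO arrays 1, 2 and 3, and 7.43, 7.40 and 7.56 on WT arrays 1, 2 and 3. KHSRP-KO arrays 2 and 3 lay above every other array, while KHSRP-KO array 1 lay among the WT arrays, so the genotypes overlapped under this scaling. They did not overlap after quantile normalization, with KHSRP-KO array 1 at 16.43 and the highest WT array at 16.33. Nor did they in the values normalized by the authors, where these arrays stood at 16.53 and 16.43. The mean was 7.86 ± 0.34 (SD, n = 3) in KHSRP-KO and 7.47 ± 0.09 (SD, n = 3) in WT neocortex, a difference of 0.39 (SE 0.20), or 1.31-fold. In bulk tissue, more cells that express a gene and more RNA in each cell cannot be told apart.

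The signal of Rac1 before scaling was nearly level across the 6 arrays. The processed signals were 81817, 91697 and 92446 on the KHSRP-KO arrays and 83902, 84057 and 80129 on the WT arrays. The highest was 1.15 times the lowest, and the unscaled genotype difference was 0.10 on the log2 scale. The array percentile that is subtracted in the scaling differed by up to 0.53 between arrays, against a range of 0.21 for the unscaled Rac1 signal. None of these spots was saturated, and they stood at 10.4% to 11.9% of the saturation value.

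Rnd1 encodes an atypical small GTPase that stays bound to GTP, binds plexin receptors and opposes RhoA signalling through p190 GTPase activating proteins, the family to which the Arhgap5 product belongs. Its scaled log2 signal was 1.82, -0.12 and -0.19 on KHSRP-KO arrays 1, 2 and 3, and 3.04, 3.12 and 1.87 on WT arrays 1, 2 and 3. The arrays fell into 3 levels that followed the slides: WT arrays 1 and 2 were high, KHSRP-KO arrays 2 and 3 were low, and WT array 3 and KHSRP-KO array 1 lay close together between them. The genotypes did not overlap, with KHSRP-KO array 1 at -0.045 from WT array 3.

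The mean for Rnd1 was 0.50 ± 1.14 (SD, n = 3) in KHSRP-KO and 2.68 ± 0.70 (SD, n = 3) in WT neocortex, a difference of -2.17 (SE 0.59), or 4.50-fold lower. KHSRP-KO array 1 stood 1.97 above the mean of the other KHSRP-KO arrays, and WT array 3 differed by -1.21 from the mean of the other WT arrays. In processed signal, the KHSRP-KO arrays gave 1631, 324 and 301 and the WT arrays 3990, 4332 and 1543. These signals overlapped between the genotypes, since KHSRP-KO array 1 exceeded WT array 3. All 6 spots were well above background, the dimmest at 15.5 times its local background, so the low KHSRP-KO values were measured levels.

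Arhgap5 encodes p190B, a GTPase activating protein that turns RhoA off. Its scaled log2 signal was 1.94, 2.29 and 2.27 on KHSRP-KO arrays 1, 2 and 3, and 1.61, 1.83 and 1.63 on WT arrays 1, 2 and 3. All KHSRP-KO arrays lay above all WT arrays, with KHSRP-KO array 1 nearest to them. The mean was 2.17 ± 0.20 (SD, n = 3) against 1.69 ± 0.12 (SD, n = 3), a difference of 0.48 (SE 0.17), or 1.39-fold. The processed signals were 1768, 1719 and 1656 in KHSRP-KO and 1481, 1764 and 1315 in WT neocortex. Without scaling the genotypes overlapped, because WT array 2 exceeded KHSRP-KO arrays 2 and 3, and the difference was 0.18.

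Chm encodes Rab escort protein 1, which presents newly made Rab GTPases to the geranylgeranyl transferase that attaches their lipid anchor. Its scaled log2 signal was -0.31, -0.09 and -0.11 on KHSRP-KO arrays 1, 2 and 3, and -0.83, -0.81 and -0.66 on WT arrays 1, 2 and 3. All KHSRP-KO arrays lay above all WT arrays, and the nearest pair across the genotypes was that of the shared slide, as for Rnd1. The mean was -0.17 ± 0.12 (SD, n = 3) against -0.77 ± 0.09 (SD, n = 3), a difference of 0.60 (SE 0.15), or 1.51-fold. The processed signals were 371, 330 and 319 in KHSRP-KO and 273, 283 and 267 in WT neocortex, so that the genotypes did not overlap without scaling either. The unscaled difference was 0.31.

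**Figure D1:**
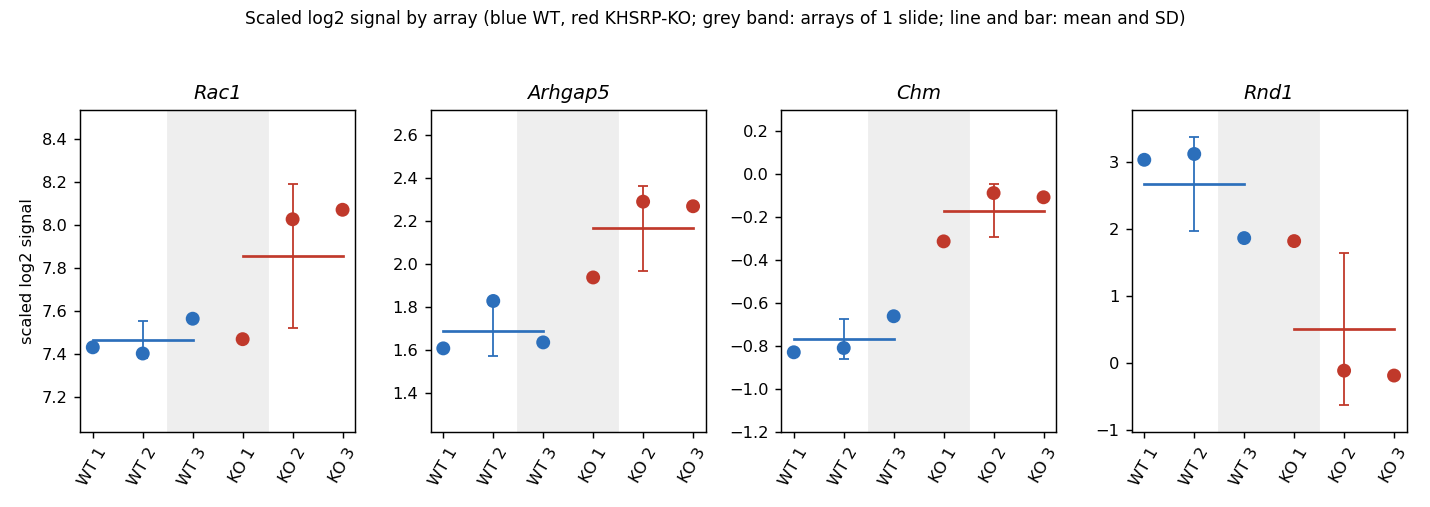
Scaled log2 signal (y axis) of Rac1, Arhgap5, Chm and Rnd1 on each of the 6 arrays (x axis), WT in blue and KHSRP-KO in red, with a line at the genotype mean, a bar for the SD (n = 3) and a grey band over the arrays of the slide that held both genotypes. KHSRP-KO array 1 lies nearer to the WT arrays than KHSRP-KO arrays 2 and 3 do in every panel, and the y axes differ in range.

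Of the 4 genes, Rnd1 had the largest difference and the widest spread between arrays of 1 genotype, and Chm had the narrowest margin of error relative to its difference. At unadjusted p under 0.05 and a log2 difference of at least 0.32, the fold threshold of the study, 9.26% of the 48436 probes tested were higher and 7.03% lower in KHSRP-KO. Arhgap5 and Chm were among the higher and Rnd1 among the lower, and Rac1 was not called. After Benjamini-Hochberg adjustment over all probes, 0.0826% were higher and 0.0124% lower, and none of the 4 was called, though Rnd1 was without KHSRP-KO array 1. There was no overlap between the arrays of the genotypes for 12.4% of probes in the higher and 9.9% in the lower direction, again with Arhgap5, Chm and Rnd1 among them. Because the same contrast had chosen the 4 genes, nothing is read from these counts.

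The scaling set the size of the higher values. Without it, the median difference over all probes was -0.29, with KHSRP-KO arrays 2 and 3 the dimmest as a whole, and Rac1, Arhgap5 and Chm stood at 0.10, 0.18 and 0.31. Relative to that median they were higher by an amount close to their scaled differences. Rnd1 stood at -2.46 without scaling.

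**Figure D2:**
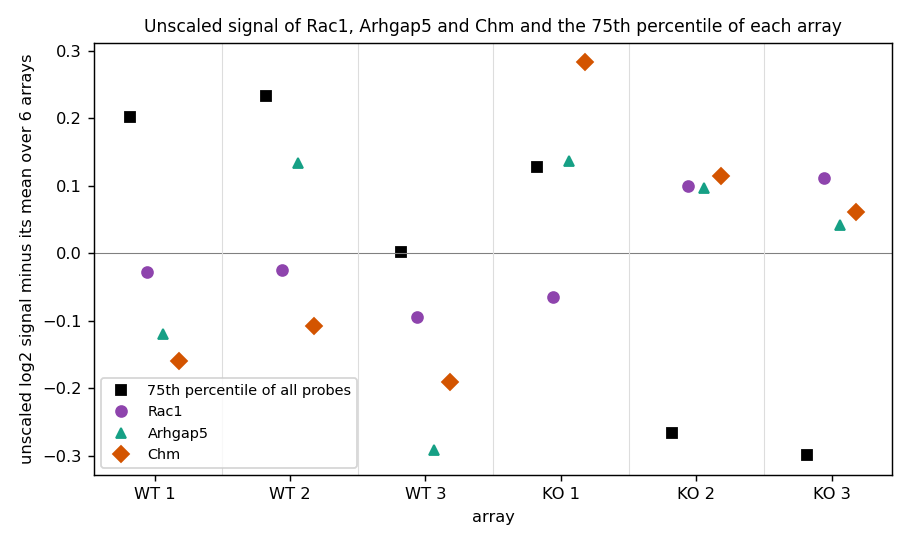
Unscaled log2 signal of Rac1, Arhgap5 and Chm, and the 75th percentile of all probes, on each array (x axis), each minus its own mean over the 6 arrays (y axis). Rac1 spans 0.21 and the percentile 0.53, and the percentile is lowest on KHSRP-KO arrays 2 and 3.

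The slide that held both genotypes allowed a comparison within 1 scan, with 1 array a genotype and no replicate. There, KHSRP-KO array 1 minus WT array 3 was 0.30 for Arhgap5 and 0.35 for Chm, smaller than the 0.56 and 0.72 found between KHSRP-KO arrays 2 and 3 and WT arrays 1 and 2. For Rnd1 it was -0.045, against -3.23 over the other slides, which is 9.41-fold. The Rac1 value was -0.10, against 0.63 over the other slides.

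The sign for Rac1 and Rnd1 on that slide turned with the scaling. For Rac1 it was 0.094 after quantile normalization, 0.10 in the values normalized by the authors and 0.030 without scaling. For Rnd1 it was 0.080 without scaling and -0.018 in both normalized versions. Neither gene thus had a settled direction between these 2 arrays. Arhgap5 and Chm were higher on KHSRP-KO array 1 under every scaling tried, by between 0.26 and 0.43 and between 0.29 and 0.47. The scalings were applied to the same 2 arrays, so these values are not separate checks. Both arrays were also part of the contrast that had chosen the genes. Of the 1414 tested genes that the study had listed as higher, 1362 were higher on this slide under the scaling reported. Nothing is thus read from the direction of Arhgap5 and Chm on it. The other slides each held a single genotype, so that an effect of the slide and of the genotype cannot be told apart there.

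The pattern of Rnd1 was set beside that of all probes. Among the 43 probes that were lower by 2 or more on the log2 scale, Rnd1 included, 23 (53.5%) had both arrays of the shared slide displaced from the mean of the other arrays of their own genotype toward the other genotype, against 34.5% of all probes in either direction. In 6 of the 43 (14.0%), Rnd1 included, the difference on the shared slide was within 0.1 of 0, against 25.4% of all probes. The 43 were selected by a difference that includes the shared slide, so nothing is read from these shares. Their median difference was -0.99 on the shared slide and -2.95 over the other slides. For the 862 probes lower by 1 or more these medians were -0.33 and -1.70. Over all 48364 probes with a value on every array, 69.0% had less difference on the shared slide, counted in the direction of the overall difference. They include the 34.4% of probes whose sign on the shared slide was opposite.

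**Figure D3:**
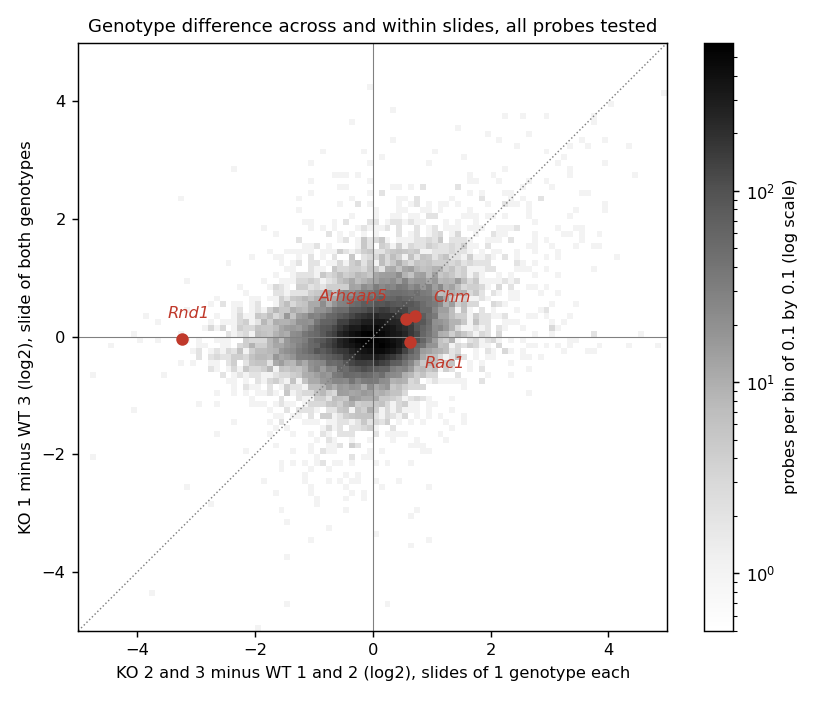
Difference between KHSRP-KO arrays 2 and 3 and WT arrays 1 and 2, on slides of 1 genotype each (x axis), against KHSRP-KO array 1 minus WT array 3 on the slide of both genotypes (y axis), both in scaled log2 units, for all probes in grey bins and the 4 genes in red. Rnd1 lies at -3.23 and -0.045, and Rac1, Arhgap5 and Chm lie below the dotted line of equal differences.

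Leaving out 1 array at a time kept the sign of all 4 differences. For Arhgap5, Chm and Rnd1 the sign could not change, because their arrays did not overlap between the genotypes. The values lay between 0.28 and 0.58 for Rac1, 0.41 and 0.59 for Arhgap5, 0.56 and 0.67 for Chm, and -2.83 and -1.82 for Rnd1. The difference was farthest from 0 for all 4 genes without KHSRP-KO array 1, and Rac1 moved nearly 1.5 times.

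**Figure D4:**
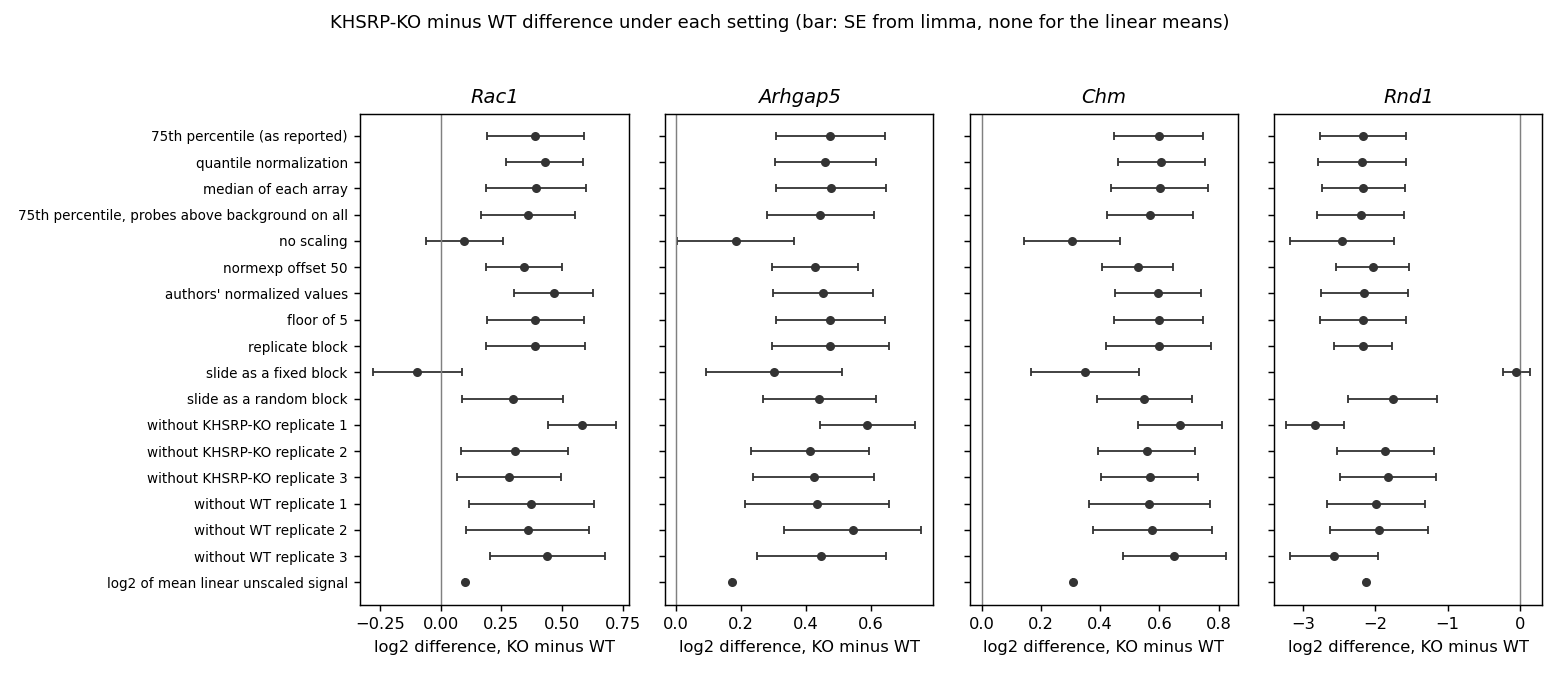
KHSRP-KO minus WT difference in log2 signal (x axis) of each gene under the setting reported and under each other setting (y axis), with the SE from limma as a bar where there is one. The slide as a fixed block brings Rac1 to -0.10 and Rnd1 to -0.045, and the x axes differ between panels.

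The wider small GTPase system was described with lists of 322 genes, of which 36 had a named probe. Since a symbol was at hand only for transcripts that the study had listed as higher or lower in these same samples, neither the counts nor the directions below are evidence on the system as a whole. Leaving out the 4 genes above, 28 listed genes were higher and 4 lower in KHSRP-KO, all 32 past the same unadjusted thresholds in limma, and 0 after adjustment. The median difference of the 28 was 0.62, against 0.56 over all named genes of the higher part of that list. The median of the 4 was -1.03, against -1.07 over its lower part. Of all named genes tested, 1275 of 1414 in the higher part and 251 of 260 in the lower part passed the same unadjusted thresholds, so the share of the listed genes was close to that of the list they came from. On the shared slide 27 of the 28 remained above 0, against 1362 of the 1414, and 17 reached 0.32. The exception was Itsn1, an exchange factor for Cdc42, at -0.0027.

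Beside Rac1 and Rnd1, the only gene with a named probe in the list of 21 GTPases that holds both was Rhod, which acts on endosome movement. It was higher by 0.52 (SE 0.14), with the KHSRP-KO arrays at -3.89, -3.74 and -3.85 and the WT arrays at -4.33, -4.39 and -4.31. Its arrays did not overlap, and the shared slide gave 0.42. None of the 3 dissociation inhibitors listed for these GTPases and none of the 14 receptors and adaptors listed for Rnd1 binding had a named probe, and they were not analysed here.

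Of the 58 GTPase activating proteins listed with Arhgap5, 7 had a named probe. Beside Arhgap5, the 3 with the largest higher difference were Dlc1 at 0.98 (SE 0.20), Depdc1b at 0.89 (SE 0.22) and Arhgap39 at 0.63 (SE 0.19). Dlc1, a RhoA-directed activating protein known as a tumour suppressor, differed by 1.27 on the shared slide, more than over the other slides. The Arhgap39 value came from the brighter of its probes, and its other probe differed by -1.09, so this gene has no single direction. The only lower one was Abr, which carries both an exchange and an activating domain and turns Rac off, at -0.87 (SE 0.19) over all arrays and -0.76 on the shared slide.

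Of 77 exchange factors, which turn such GTPases on, 7 had a named probe. Plekhg2 at 0.98 (SE 0.30), Mcf2l at 0.83 (SE 0.22) and Itsn1 at 0.47 (SE 0.19) were the highest. Arhgef18, an activator of RhoA, was lower, at -1.18 (SE 0.47). Its scaled log2 signal was 5.57, 4.62 and 3.49 on KHSRP-KO arrays 1, 2 and 3, and 5.63, 5.72 and 5.88 on WT arrays 1, 2 and 3. KHSRP-KO array 1 was the closest to the WT arrays, as in Rnd1, and the shared slide gave -0.32, where Rnd1 differed by -0.045.

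Among 72 effectors, the proteins on which Rac1 and related GTPases act, all 7 with a named probe were higher. Of all named genes, 1454 were in the higher part of the study's list and 260 in the lower. The study itself reported more mRNAs lower than higher, so this balance is that of the symbols at hand. The largest differences were in Git2 at 0.84 (SE 0.18), which is a scaffold for Pak kinases and Rac exchange factors, Ppp1r12a at 0.73 (SE 0.23), the targeting subunit of myosin phosphatase, and Fmnl2 at 0.72 (SE 0.16), a formin that elongates actin filaments. The 3 probes of Git2 were all higher, by between 0.73 and 0.93. On the shared slide the 3 genes were higher by 0.61, 0.54 and 0.57.

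The Rab escort and prenylation list, to which Chm belongs, had 5 of its 16 genes named. Chml, the paralog of Chm that encodes Rab escort protein 2, was higher by 0.74 (SE 0.20), with the KHSRP-KO arrays at -4.17, -3.62 and -3.95 and the WT arrays at -4.90, -4.46 and -4.60. Rabggtb, the catalytic subunit of the transferase to which both escort proteins bring Rabs, was higher by 0.39 (SE 0.15), and Gdi2, which extracts Rabs from membranes, by 0.52 (SE 0.15). Icmt, which methylates the prenylated end of small GTPases, differed by -0.81 (SE 0.24). None of these 4 genes had overlapping arrays between the genotypes. The same held for 27 of the 28 higher and 4 of the 4 lower listed genes. It held for 12.4% of all probes in the higher and 9.9% in the lower direction. The listed genes had been selected on this contrast, so nothing is read from it.

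On the shared slide, Chml, Gdi2 and Rabggtb were higher in KHSRP-KO by 0.43, 0.24 and 0.19, and Icmt differed by -0.15. Each was smaller than over the other slides, as it was for Chm. Of the 61 Rab GTPases, the substrates of this machinery, 7 had a named probe and all 7 were higher. Most named genes were in the higher part of the study's list, 1454 against 260 in the lower, so nothing is read from this count. The study itself reported more mRNAs lower than higher. The largest differences were 0.71 (SE 0.20) for Rab13, 0.67 (SE 0.18) for Rab3b, a Rab of synaptic vesicles, and 0.66 (SE 0.17) for Rab42.

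**Figure D5:**
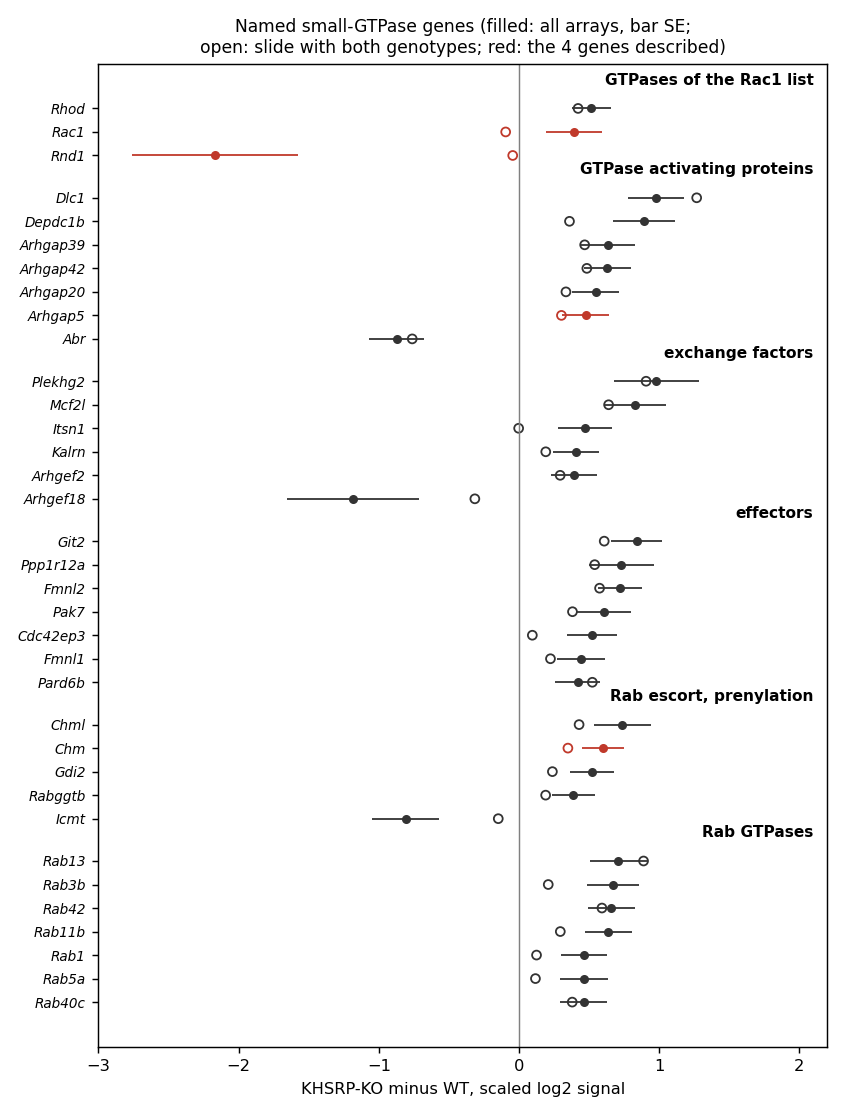
KHSRP-KO minus WT difference in scaled log2 signal (x axis) of 35 of the small GTPase genes with a named probe (y axis), with filled points and SE bars for all arrays and open points for the shared slide, the 4 genes described in red. All but 4 of the 35 lie above 0 over all arrays, and most open points lie nearer to 0 than the filled ones.

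The named probes most like each of the 4 genes over the 6 arrays were found among 1650 candidates by Pearson's r, which is given as a description because the arrays share slides and all candidates had been selected for a genotype difference. Rac1 was matched best by Igf2r (r = 0.998), Scoc (r = 0.997) and 2610002M06Rik (r = 0.997). Like Rac1, all 3 were lower on KHSRP-KO array 1 than on WT array 3 under this scaling, with differences of -0.08, -0.05 and -0.04. Arhgap5 was matched best by Cml1 (r = 0.997) and Zfp518a (r = 0.996), which were higher on the shared slide by 0.31 and 0.26.

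Rnd1 was matched by Pmp2 (r = 0.996), 4932443I19Rik (r = 0.995) and Gm11435 (r = 0.994). Pmp2, a lipid-binding protein of peripheral myelin, was at -2.66, -3.47 and -3.51 in KHSRP-KO and at -2.06, -2.15 and -2.72 in WT neocortex, with the same order of slides as Rnd1 and a difference of 0.06 on the shared slide. Its difference of -0.90 (SE 0.29) was smaller than that of Rnd1. Chm was matched by Runx3 (r = 0.999), Ppp2r2a (r = 0.997) and Ndufs4 (r = 0.996), with differences of 0.96, 0.70 and 0.93. After the genotype means were taken away, r was at least 0.98 for the probes named beside Rac1, Arhgap5 and Rnd1. It was 0.986, 0.967 and 0.966 for Runx3, Ppp2r2a and Ndufs4. The probes had been picked by r on the same arrays, so these values are no separate check.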

How the data were processed

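The authors deposited the scanner output of 6 Cy3 arrays made with Agilent Feature Extraction 11.0.1.1, whose processed signal is a background-subtracted intensity on a linear scale, and a table of log2 values that they had normalized between arrays. The submitters' processing notes name limma, and the sources used here do not name the normalization. Marks of 0 or 1 for saturation, outliers and background, deposited as other columns of the scanner output, served as filters. The fold changes and p-values in the study's list were not used.

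Control spots, negative-control probes and outlier spots were left out, spots of a probe were averaged, and log2 signal was set relative to the 75th percentile of its array. Probes were kept if detected above background on 3 or more arrays, and the 48436 kept were fitted with limma 3.58.1 (lmFit and eBayes, R 4.3.3) without covariates, with Benjamini-Hochberg adjustment over all of them. Each sample is a separate mouse, and precision is limited by there being 3 arrays a genotype. The median residual SD was 0.25 on the log2 scale. Symbols came from the study's list: its 1522 higher probes by name, and 266 lower entries by matching 6 raw values within a relative tolerance of 2e-05.

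The members and the gene lists were chosen with earlier results of these data known. Besides the 4 genes, the text names every gene of the Rac1 list and every listed dissociation inhibitor, Rnd1-binding and Rab escort gene with a named probe, from each other pathway list the 3 called genes with the largest higher and the 2 with the largest lower difference, and the 3 probes most like each gene. The brightest probe stood for a gene with several. Named marker genes were Snap25, Camk2a, Slc1a2, Fabp7 and Drd1. Of these Camk2a, in excitatory neurons, differed by -0.86, and Snap25 of neurons, Slc1a2 and Fabp7 of astrocytes by 0.55, 0.48 and 0.88. No oligodendrocyte, microglial or endothelial marker had a named probe.

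The test was checked on simulated data with independent arrays and no slide effect, so the check does not cover the slides. Alternatives covered the scaling, background correction (normexp, offset 50, on median signals), a floor of 5, the filter, the test, the thresholds, each array left out, and slide or replicate number as a block (random block with statmod 1.5.0). The shared-slide differences under other scalings were added after seeing the data. Probe sequences were not analysed here. Some genes that this rule selects are not reported here.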

Additional observations from a re-analysis of the deposited data

How the results depend on the processing

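Of 68 values of the 4 differences under the alternatives, 58 stayed within 1 SD of the value reported, 9 moved further and 1 turned, and the causes were not tested except where named. Quantile normalization, the array median, a percentile restricted to probes detected on all arrays, normexp, the floor and the authors' values gave 0.34 to 0.47 for Rac1, 0.43 to 0.48 for Arhgap5, -2.20 to -2.03 for Rnd1 and 0.53 to 0.61 for Chm. Without scaling, Rac1, Arhgap5 and Chm had differences of 0.10, 0.18 and 0.31, and as log2 of mean linear unscaled signals 0.10, 0.17 and 0.31. The slide as a fixed block, which by construction leaves only the shared slide, gave Rac1 -0.10, Arhgap5 0.30, Rnd1 -0.045 and Chm 0.35. As a random block (consensus correlation 0.26) it gave 0.30, 0.44, -1.76 and 0.55. On the shared slide itself, Rac1 turned to 0.094 with quantile normalization, 0.10 with the authors' values and 0.030 without scaling, Rnd1 turned to 0.080 without scaling, and Chm moved to 0.47 without scaling; these were chosen after seeing the data. With an array left out, the values ranged from 0.28 to 0.58 for Rac1, 0.41 to 0.59 for Arhgap5, -2.83 to -1.82 for Rnd1 and 0.56 to 0.67 for Chm.

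At unadjusted p under 0.05 and a log2 difference of 0.32, 4484 probes were higher and 3405 lower. These became 1221 and 7287 without scaling (56.8% of calls higher with scaling, 14.4% without, against 65.3% with normexp), 1761 and 1093 with the slide as a fixed block, and 40 and 6 after adjustment. At 1.5-fold 2728 were higher, and 1817 were lower by the methods' t-test and 2214 with the random block. With an array left out, 2520 to 6642 were higher and 1495 to 6409 lower, with the fewest without WT array 1 and the most without KHSRP-KO array 1. Of the pathway genes, 30 were higher and 5 lower, the 4 genes included. The higher became 5 without scaling, 16 at 1.5-fold, 2 with the slide block and 0 after adjustment, and ranged from 17 to 31 with an array left out, falling below 20 without KHSRP-KO array 2 or 3 or WT array 1 or 2. The lower became 0 with the slide block and 0 after adjustment, and stayed between 4 and 5 with an array left out. Of the 4 genes, between 2 and 4 passed the unadjusted thresholds with an array left out, 4 with quantile normalization, the authors' values or without KHSRP-KO array 1, 1 (Rnd1) with unscaled signals and 0 with the fixed slide block.

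The labels do not say whether replicate numbers pair the samples. Deviations of same-numbered arrays correlated at -0.31, 0.11 and -0.31. These values cannot decide the pairing, because same-numbered arrays always lay on different slides. With the replicate block the differences were 0.39, 0.48, -2.17 and 0.60, unchanged by construction, since each number held 1 array of each genotype. With that block 3540 probes were higher and 2668 lower.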
